A study of Mus musculus with 6 samples.

Results

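The genes described here make, remodel, burn and store fatty acids. The set holds 42 genes listed by function, a list drawn up with earlier results of these data in view: citrate cleavage and fatty acid synthesis, desaturation, elongation, activation to acyl-CoA, the carnitine shuttle into mitochondria, mitochondrial and peroxisomal oxidation, lipid droplets and triglyceride, and regulators of fuel choice. All 42 symbols were found among the 55536 genes counted in the files. Enough reads for a test were present for 39 of them, among 12664 genes tested in all. The cells were CAD, an established mouse central nervous system line of catecholaminergic type. The labels give it as male, of strain C57BL/6 x DBA/2 and transformed with simian virus 40, and both groups carry all of this. The study measured mRNA by sequencing in 3 libraries of undifferentiated, proliferating cells in 8% serum and 3 libraries of cells differentiated for 5 days with 100 µM dexamethasone, a synthetic glucocorticoid, in 1% serum. The steroid and the lower serum changed together, so their parts cannot be told apart. The labels call the samples independent but name no separate cultures, so the p-values cover only the variation among these samples, possibly of technical origin.

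Fatty acids are assembled in the cytosol from acetyl-CoA, which is released from citrate exported by mitochondria, and are then lengthened and given double bonds in the endoplasmic reticulum. For oxidation they are joined to coenzyme A, passed into mitochondria as carnitine esters and shortened step by step, while peroxisomes take branched and very long chains. Surplus fatty acids are stored as triglyceride in lipid droplets, which are coated by perilipins and emptied by lipases. Neural cells draw heavily on desaturated and elongated fatty acids for their membranes.

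The deposited counts summed to between 6411105 and 8757992 reads per library. Levels are given as CPM, reads per 1000000 reads of the TMM-scaled library, where 3 reads amount to 0.327 to 0.487 CPM depending on the library. Levels of different genes are compared as RPKM, which is CPM per 1000 bases of deposited gene length. A fold change is differentiated over undifferentiated, fitted on the log2 scale with its standard error (SE), and a gene is called where edgeR's quasi-likelihood test gave a Benjamini-Hochberg adjusted p under 0.05 over all 12664 genes. Libraries of a group were close to each other (Pearson's r of 0.9915 to 0.9932 across genes, against 0.8575 to 0.8634 between groups). Most genes were called: 40.3% of all tested genes were called higher and 38.6% lower. Scaling by upper quartiles or by library totals moved the median log2 fold change of all tested genes from 0.02 to 0.12 and 0.14, so fold changes of that size depend on the scaling. With upper quartiles the calls split into 5692 higher and 4334 lower, and with library totals into 5802 and 4207, against 5106 and 4891 here. In bulk RNA, fewer cells of a type and less RNA per cell cannot be told apart.

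Most of the set rose with differentiation, including every tested gene of desaturation, lipid droplets, the carnitine shuttle and peroxisomal oxidation, while mitochondrial oxidation was mixed. Of the 39 tested genes, 31 were called higher (40.3% of all tested genes), 2 were called lower (38.6%) and 6 were not called. A rise of at least 2-fold was called for 13 (17.8% of all tested genes) and a fall of at least 2-fold for 0 (12.2%). With upper quartile scaling or library totals the count of rises of at least 2-fold was 19, and it was 13 to 15 with a library left out. The share of all tested genes with such rises was not computed for these settings. Those 2 scalings also shift all genes upward, to medians of 0.12 and 0.14. The lowest differentiated library exceeded the highest undifferentiated one in 31 genes (41.0% of all tested genes), and the reverse held in 2 genes (38.9%). The median log2 fold change was 0.79 over the 39 genes and 0.02 over all tested genes. By branch, the median was highest for the 2 peroxisomal oxidases, at 5.27 as fitted and 3.71 with Acox2, which had no read in undifferentiated cells, at its lower bound. It was 1.50 for the 5 desaturases, 1.08 for 7 lipid droplet and triglyceride genes, 0.93 for the 3 genes of the carnitine shuttle and 0.91 for 2 fuel regulators. It was 0.56 for 4 activating enzymes, 0.46 for 4 elongases and 0.29 for 4 genes of synthesis. Mitochondrial oxidation stood lowest, with a median of -0.04 over 8 genes, and it was the branch that held both genes called lower. Its median was 0.06 with upper quartile scaling and 0.09 with library totals, so its sign depends on the scaling.

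**Figure D1:**
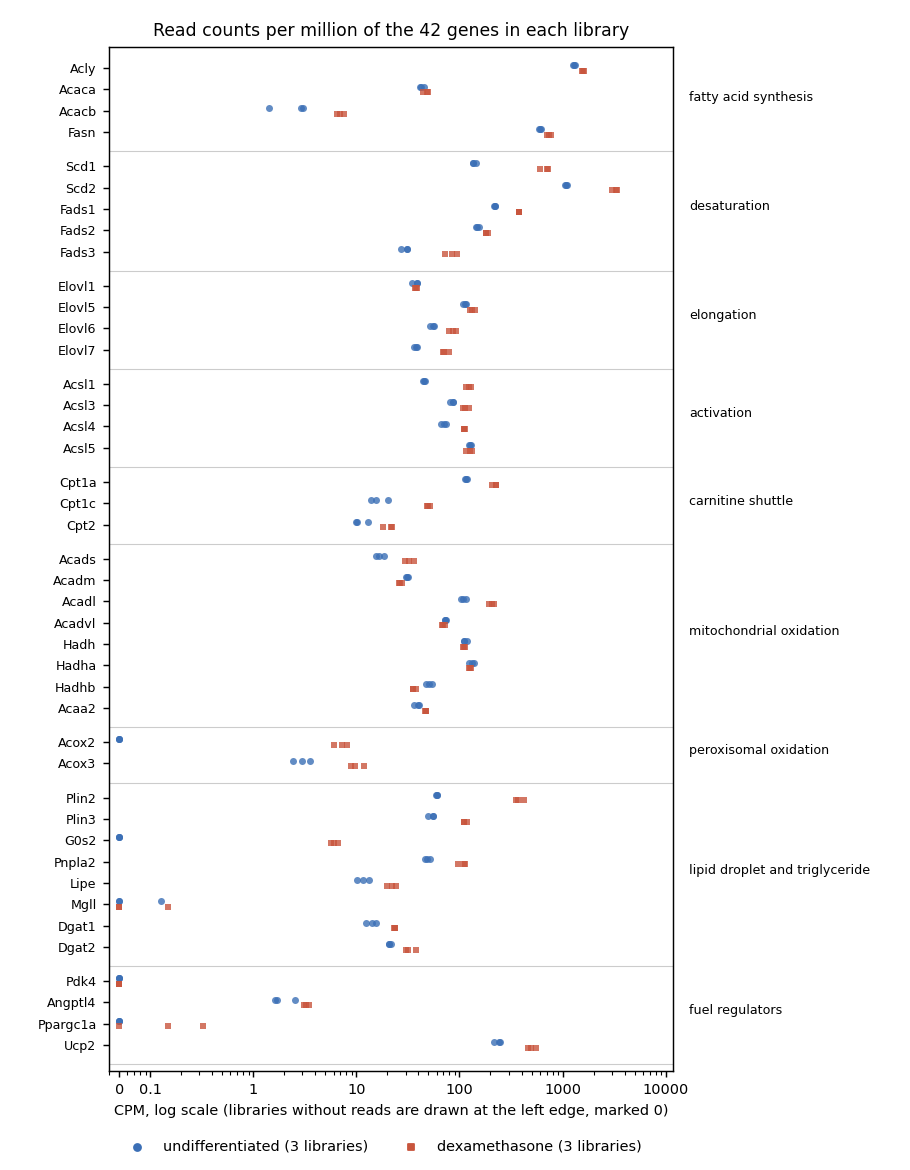
Level in CPM of the 42 genes in each of the 6 libraries (log axis, libraries without reads at the left edge marked 0; circles undifferentiated, squares dexamethasone), grouped by branch. The tested droplet genes and the desaturase genes show separated groups, while Hadh, Hadha, Acadvl, Acsl5, Elovl1 and Acaca overlap. Mgll, Pdk4 and Ppargc1a, which had too few reads for a test, overlap too.

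The 42 genes' RPKM summed to 1044 ± 8.88 before and 1975 ± 63.0 after differentiation (SD, n = 3). Desaturases gave most of the gain, from 327 ± 3.35 to 886 ± 50.3 RPKM (SD, n = 3). Scd2 alone accounted for 199.5 RPKM of this in undifferentiated and 591 RPKM in differentiated cells, and Scd1 for 28.2 and 139 RPKM. Summed RPKM of droplet and triglyceride genes, to which Plin2 gave 17.2 and 109 RPKM, went from 60.8 ± 0.818 to 204 ± 14.2 (SD, n = 3). That of synthesis genes went from 305 ± 4.86 to 372 ± 7.32 (SD, n = 3) and that of mitochondrial oxidation from 168 ± 4.68 to 223 ± 2.73 (SD, n = 3). Of the latter sum, Acadl alone accounted for 54.7 RPKM in undifferentiated and 103 RPKM in differentiated cells, and the branch median stayed near 0. The order of levels per length changed at the top: Acly led in undifferentiated cells at 247 RPKM, ahead of Scd2 at 199.5 RPKM, and Scd2 led in differentiated cells at 591 RPKM, ahead of Acly at 300.3 RPKM. Scd1 went from rank 9 to rank 3 of the set and Plin2 from rank 15 to rank 4.

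**Figure D2:**
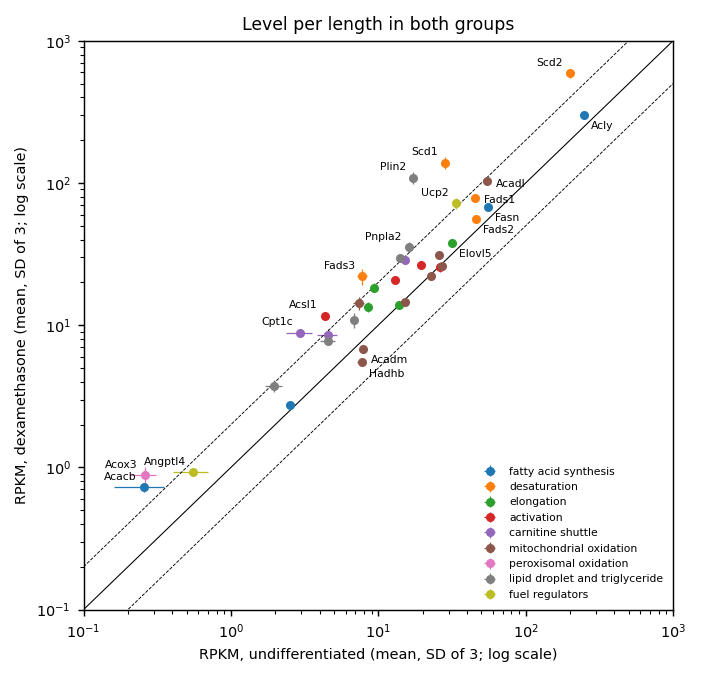
Level per length of each gene in differentiated against undifferentiated cells (RPKM, mean with SD of 3 libraries, both axes log), coloured by branch, with the line of equality and dashed lines at 2-fold. Scd2, Scd1 and Plin2 sit above the upper dashed line at high levels; genes with no read in undifferentiated cells and genes with too few reads in both groups are not drawn.

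The 3 members with the largest rises whose promoters RefSeq lists here are shown with the 250 bases before their start, since 2 of them went from no read to a clear level and the other is the main droplet coat. RefSeq promoters on GRCm38.p6 were found for 35 of the 42 genes; those without an entry are Acaa2, Angptl4, Dgat1, Dgat2, Fads1, Scd1 and Scd2. Each sequence runs 5′ to 3′ along the gene's strand and ends at the base before the start. RefSeq lists 2 starts for Acox2, Elovl1, Acsl1, Lipe and Mgll, and for these the stretch before the start farthest upstream was read. Capitals mark exact matches, on either strand, to 7 sets of letters: the E-box core CACGTG, a sterol regulatory element written TCACNCCAC, the nuclear receptor half-site AGGTCA, the glucocorticoid receptor half-site AGAACA, the CCAAT box, the GC box core GGGCGG and the TATA box core TATAAA.
Plin2: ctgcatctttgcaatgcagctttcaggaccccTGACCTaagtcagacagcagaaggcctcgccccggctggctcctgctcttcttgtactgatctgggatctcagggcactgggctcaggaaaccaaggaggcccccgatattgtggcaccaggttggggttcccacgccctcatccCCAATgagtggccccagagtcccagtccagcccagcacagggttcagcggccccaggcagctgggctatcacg
G0s2: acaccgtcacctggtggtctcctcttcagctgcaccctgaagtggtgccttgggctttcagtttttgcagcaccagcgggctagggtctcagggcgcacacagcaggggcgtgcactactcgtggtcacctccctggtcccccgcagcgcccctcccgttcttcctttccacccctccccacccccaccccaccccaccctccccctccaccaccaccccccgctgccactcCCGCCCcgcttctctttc
Acox2: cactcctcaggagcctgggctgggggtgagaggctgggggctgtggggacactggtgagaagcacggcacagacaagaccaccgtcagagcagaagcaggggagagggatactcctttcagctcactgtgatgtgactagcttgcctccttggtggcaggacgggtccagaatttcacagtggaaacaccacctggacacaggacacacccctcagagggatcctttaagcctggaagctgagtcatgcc
The Plin2 stretch lies at chr4:86670060-86670309 on the minus strand and holds TGACCT, which is AGGTCA on the opposite strand, at -218 to -213 and CCAAT at -73 to -69. The G0s2 stretch lies at chr1:193273189-193273438 on the minus strand and holds CCGCCC, which is GGGCGG on the opposite strand, at -18 to -13. The Acox2 stretch lies at chr14:8259020-8259269 on the minus strand and holds none of the 7 sets of letters. It lies wholly inside the gene span used for counting, which ends at 8259353, and the bases upstream of that span were not read. The stretch before the other RefSeq start was not read either. The stretches of Acaca, Acacb, Acsl5, Cpt1a, Plin3 and Lipe also lie wholly inside the counted gene spans. Over the 35 promoters, AGGTCA was present in 7 (Acadm, Acadvl, Acly, Cpt1a, Cpt1c, Elovl6 and Plin2), or 20.0%, against 14.0% of all promoters in the table and 10.0% of those of tested genes. AGAACA was present in 4 (Acaca, Acsl5, Hadh and Mgll), or 11.4%, against 16.1% and 9.98%. CACGTG was present in 3 (Elovl5, Lipe and Mgll), or 8.57%, against 6.02% and 8.55%, and TCACNCCAC in 1 (Ucp2), or 2.86%, against 1.05% and 0.876%. GGGCGG was present in 22, or 62.9%, against 32.7% of all promoters and 61.5% of those of tested genes, CCAAT in 13, or 37.1%, against 33.9% and 37.2%, and TATAAA in 1 (Acacb), or 2.86%, against 12.4% and 5.75%. The 35 promoters include those of Mgll, Pdk4 and Ppargc1a, which were not tested, so the shares of tested genes cover an unlike set. A match describes the letters of a window, and no match says only that these letters are not in it.

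Among genes of synthesis from acetyl-CoA, Acly and Fasn rose by small steps. Acly, the ATP citrate lyase that releases acetyl-CoA from citrate (ENSMUSG00000020917, chromosome 11, 100476353 to 100528000 in GRCm38), stood at 1275, 1306 and 1329 CPM in the undifferentiated libraries and 1588, 1613 and 1554 CPM in the differentiated ones. The groups did not overlap, and the log2 fold change was 0.28 ± 0.045 (SE; edgeR adjusted p = 2.67e-06), or 1.22-fold. Fasn, the fatty acid synthase that builds palmitate, went from 606 ± 15.6 to 744 ± 30.2 CPM (SD, n = 3), a 1.23-fold rise. The carboxylases that make malonyl-CoA differed. Acaca, the form that feeds synthesis, missed the test (edgeR adjusted p = 0.0795), at 42.9 ± 1.70 and 47.2 ± 2.91 CPM (SD, n = 3). It was called higher with upper quartile scaling (adjusted p = 0.00436), library totals (0.00212) and without differentiated library 3 (0.0341), and 26.8% of its 75-base stretches also occur in other genes, so its counts are less certain. Acacb, the form at the mitochondrial outer membrane whose malonyl-CoA restrains fatty acid entry, stood at 1.41, 3.06 and 2.92 CPM and then at 6.86, 7.52 and 6.55 CPM. Every differentiated library was above every undifferentiated one, and the fitted rise was 2.83-fold (log2 1.50 ± 0.241 SE; edgeR adjusted p = 2.74e-06), at a level per length far under that of Acaca.

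All 5 desaturases rose, and desaturation gained most in summed level per length. Scd2, the stearoyl-CoA desaturase that predominates in mouse brain (ENSMUSG00000025203, chromosome 19, 44293674 to 44306864), stood at 1062, 1091 and 1117 CPM in undifferentiated libraries and 3409, 3286 and 2988 CPM in differentiated ones. The differentiated libraries were all far above the others, and the log2 fold change was 1.57 ± 0.051 (SE; edgeR adjusted p = 2.03e-20), or 2.96-fold. Scd1, the form known from liver and adipose tissue (ENSMUSG00000037071, chromosome 19, 44394455 to 44407879), stood at 135, 143 and 136 CPM and then at 726, 705 and 608 CPM. Its groups were separate too, and it rose 4.92-fold (log2 2.30 ± 0.061 SE; edgeR adjusted p = 1.76e-22). Both genes put the first double bond into saturated chains and lie within 204.6 kb of chromosome 19 that also hold Scd3 and Scd4. Of the 75-base stretches of Scd1, 3.15% also occur in another gene, most of them in Scd3, and of those of Scd2 1.78%, most of them in Scd1.

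The 3 Fads genes lie side by side within 155 kb of the same chromosome, and all 3 rose. Fads1 and Fads2 are front-end desaturases of polyunsaturated chains. Fads1, the delta-5 desaturase, stood at 221, 218 and 219 CPM and then at 379, 376 and 380.2 CPM, with almost no spread within either group. Its rise was 1.72-fold (log2 0.79 ± 0.048 SE; edgeR adjusted p = 1.99e-14). Fads2, the delta-6 desaturase that acts earlier in the same route, rose only 1.23-fold, from 151 ± 5.29 to 185 ± 3.97 CPM (SD, n = 3). Fads3, the remaining member of the cluster, rose 2.82-fold, from 29.6 ± 2.24 to 83.7 ± 10.9 CPM (SD, n = 3). Per length, Fads1 and Fads2 stood level in undifferentiated cells at 45.6 ± 0.288 and 45.7 ± 1.61 RPKM (SD, n = 3) and apart in differentiated cells at 78.6 ± 0.455 and 56.1 ± 1.20 RPKM (SD, n = 3).

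Of the 4 elongases, which add carbons to existing chains, 3 rose. Elovl7, which lengthens saturated long chains, stood at 39.0, 35.9 and 38.1 CPM and then at 79.7, 70.0 and 70.9 CPM. The groups were separate and the rise was 1.96-fold (log2 0.97 ± 0.075 SE; edgeR adjusted p = 3.31e-12). Elovl6, which takes palmitate to stearate, rose 1.58-fold, from 54.7 ± 2.71 to 86.2 ± 6.80 CPM (SD, n = 3). Elovl5, which lengthens polyunsaturated chains and had the highest level per length of the branch, rose 1.19-fold, from 112 ± 3.76 to 133 ± 7.08 CPM (SD, n = 3). Elovl1, which acts on very long saturated chains, stood at 39.1, 34.9 and 38.5 CPM against 36.9, 37.5 and 39.2 CPM. Its groups overlapped, and it was not called (log2 0.01, 95% interval -0.15 to 0.17, edgeR adjusted p = 0.889).

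Activation to acyl-CoA was led by Acsl1, the long-chain acyl-CoA synthetase best known from oxidative and fat-storing tissues. It stood at 44.7, 45.2 and 46.4 CPM in undifferentiated and 128, 123 and 117 CPM in differentiated libraries. The separation was wide, with a 2.70-fold rise (log2 1.43 ± 0.064 SE; edgeR adjusted p = 2.3e-17). Acsl4, which prefers arachidonate, rose 1.59-fold from 70.3 ± 4.18 to 112 ± 2.44 CPM (SD, n = 3), and Acsl3, a form of the endoplasmic reticulum and of nascent droplets, rose 1.36-fold from 84.5 ± 3.49 to 115 ± 6.99 CPM (SD, n = 3). Acsl5 overlapped between groups and missed the test, at 127 ± 2.48 and 124 ± 8.82 CPM (SD, n = 3) (95% interval of the log2 fold change -0.14 to 0.09; edgeR adjusted p = 0.699). In undifferentiated cells Acsl5 had the highest level per length of the 4, at 26.0 ± 0.510 RPKM, and in differentiated cells it stood beside Acsl3, at 25.5 ± 1.81 against 26.4 ± 1.604 RPKM (SD, n = 3), a difference within the spread.

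All 3 genes listed under the carnitine shuttle rose. Cpt1a, the outer membrane palmitoyltransferase that sets the rate of entry (ENSMUSG00000024900, chromosome 19, 3322334 to 3385733), stood at 114, 115 and 118 CPM and then at 226, 227 and 205 CPM. The groups were well apart, with a 1.90-fold rise (log2 0.93 ± 0.055 SE; edgeR adjusted p = 1.27e-14). Cpt1c, the brain-enriched form, found in the endoplasmic reticulum, stood at 20.2, 15.5 and 13.8 CPM and then at 48.2, 51.7 and 49.1 CPM. It rose 2.99-fold (log2 1.58 ± 0.102 SE; edgeR adjusted p = 7.02e-14). Cpt2, which re-forms acyl-CoA on the inner membrane, rose 1.87-fold, from 10.9 ± 1.69 to 20.5 ± 2.15 CPM (SD, n = 3).

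**Figure D3:**
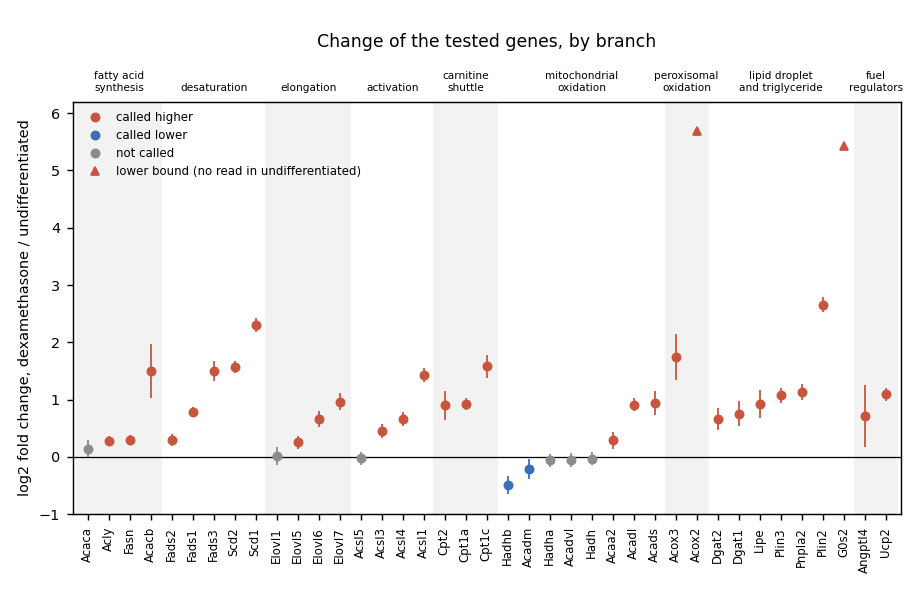
Fitted log2 fold change of the 39 tested genes by branch, with 95% intervals computed from the SE; triangles are lower bounds for Acox2 and G0s2, which had no read in undifferentiated libraries. Every tested carnitine shuttle and droplet gene lies above 0, and the 8 genes of mitochondrial oxidation lie on both sides of it.

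The genes of the mitochondrial oxidation spiral moved apart. Of 8 genes 3 rose and 2 fell, which is no more than the 40.3% and 38.6% of all tested genes. Acadl, the long-chain acyl-CoA dehydrogenase, stood at 104, 108 and 117 CPM and then at 214, 209 and 195 CPM, with separate groups and a 1.88-fold rise (log2 0.91 ± 0.057 SE; edgeR adjusted p = 3.5e-14). Acads, the short-chain form, rose 1.92-fold, from 16.8 ± 1.43 to 32.6 ± 3.43 CPM (SD, n = 3; log2 0.94 ± 0.105 SE; edgeR adjusted p = 5.22e-09). Acadvl, the very long-chain form, was not called, at 72.4 ± 0.918 and 70.0 ± 2.14 CPM (SD, n = 3; 95% interval of the log2 fold change -0.17 to 0.07); 19.5% of its 75-base stretches also occur in another gene, most in its neighbour Dvl2. Acadm, the medium-chain form, stood at 30.2, 30.8 and 32.0 CPM and then at 26.5, 27.8 and 25.9 CPM. Its differentiated libraries were all below the others and it was called lower, 1.16-fold (log2 -0.21 ± 0.088 SE; edgeR adjusted p = 0.0305). That call was lost with upper quartile scaling (adjusted p = 0.261), library totals (0.377), no filter (0.114) and DESeq2 (0.0878), and without undifferentiated library 2 (0.0631) or 3 (0.0816) or differentiated library 1 (0.0655) or 3 (0.0779).

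Of the 4 genes of the later steps, 1 fell, 1 rose and 2 were not called. Hadhb, the thiolase subunit of the trifunctional protein (ENSMUSG00000059447, chromosome 5, 30155248 to 30184593), stood at 50.6, 47.7 and 54.5 CPM and then at 37.6, 35.1 and 35.4 CPM. Every differentiated library was lower, with a 1.41-fold fall (log2 -0.49 ± 0.078 SE; edgeR adjusted p = 2.38e-06). Hadha, the partner subunit with the hydratase and dehydrogenase activities, overlapped between groups and missed the test, at 132 ± 8.43 and 127 ± 2.27 CPM (SD, n = 3) (95% interval of the log2 fold change -0.17 to 0.05). Hadh, the hydroxyacyl-CoA dehydrogenase of shorter chains, was not called either, at 113 ± 3.84 and 111 ± 2.87 CPM (SD, n = 3; interval -0.14 to 0.08). Acaa2, the separate thiolase, rose 1.22-fold, from 38.8 ± 2.29 to 47.4 ± 0.640 CPM (SD, n = 3; edgeR adjusted p = 0.0012).

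Hadha and Hadhb are transcribed away from each other from starts 273 bases apart in RefSeq, and 228 bases of the stretches before their starts are the same DNA. The stretch before Hadhb is shown because this common region precedes one gene that fell and one that was not called; it was chosen after their values were seen.
Hadhb: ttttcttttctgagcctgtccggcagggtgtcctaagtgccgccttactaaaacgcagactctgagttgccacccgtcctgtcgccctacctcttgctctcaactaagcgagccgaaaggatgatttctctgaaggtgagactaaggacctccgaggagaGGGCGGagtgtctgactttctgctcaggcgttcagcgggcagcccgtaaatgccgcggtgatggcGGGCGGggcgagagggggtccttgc
It lies at chr5:30155003-30155252 on the plus strand, and its capitals are GGGCGG at -90 to -85 and -25 to -20. As a share of both genes per length, Hadha made up 67.6%, 66.1% and 64.9% in undifferentiated and 71.8%, 72.8% and 73.3% in differentiated libraries, a comparison likewise added after the values were seen and given with no test. Of the 75-base stretches of Hadhb 16.7% also occur in 11 other genes, most in Gm13910, so its counts are less certain. Among the members not yet named for this, the share was highest for Acsl1 (8.77%) and Lipe (8.68%).

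Peroxisomal oxidation was represented by 2 oxidases at low level, and both rose. Acox2, which oxidises branched chains and bile acid intermediates (ENSMUSG00000021751, chromosome 14, 8225511 to 8259353), had 0 reads in all 3 undifferentiated libraries and 74, 67 and 41 reads in the differentiated ones. Against 3 reads over the undifferentiated group it was at least 51.3-fold higher (edgeR adjusted p = 2.02e-12), at 7.20 ± 1.05 CPM (SD, n = 3) in differentiated cells. Acox3, the pristanoyl-CoA oxidase, stood at 2.97, 3.57 and 2.44 CPM and then at 9.63, 11.8 and 8.93 CPM. Its groups were separate, with a 3.35-fold rise (log2 1.74 ± 0.204 SE; edgeR adjusted p = 1.37e-08).

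All 7 tested genes of lipid droplets and triglyceride rose, and the other, Mgll, had too few reads. Plin2, the perilipin found on droplets of most cell types (ENSMUSG00000028494, chromosome 4, 86648386 to 86670060), stood at 61.2, 60.9 and 59.6 CPM in undifferentiated and 351, 425 and 373 CPM in differentiated libraries. The 3 undifferentiated libraries were nearly equal and the others far above them, with a 6.32-fold rise (log2 2.66 ± 0.067 SE; edgeR adjusted p = 5.41e-23). Plin3, a perilipin that moves between cytosol and droplets, rose 2.11-fold, from 53.5 ± 3.52 to 113 ± 4.39 CPM (SD, n = 3). G0s2, which inhibits the triglyceride lipase of droplets (ENSMUSG00000009633, chromosome 1, 193272161 to 193273217), had 0 reads in the undifferentiated libraries and 51, 61 and 41 reads in the differentiated ones. It was at least 43.1-fold higher against 3 reads over the group (edgeR adjusted p = 6.09e-12), at 6.13 ± 0.502 CPM (SD, n = 3) in differentiated cells.

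The tested genes of lipases that empty droplets and of enzymes that fill them rose. Pnpla2, the triglyceride lipase that G0s2 inhibits, stood at 51.3, 48.7 and 45.9 CPM and then at 97.5, 113 and 111 CPM. The groups were separate, with a 2.197-fold rise (log2 1.14 ± 0.071 SE; edgeR adjusted p = 2.96e-14). Lipe, the hormone-sensitive lipase that acts on diglyceride, rose 1.90-fold, from 11.6 ± 1.54 to 22.0 ± 2.15 CPM (SD, n = 3). Mgll, the lipase of the final monoglyceride step, had 1 read in each group. Dgat1 and Dgat2, unrelated enzymes that both attach the last chain of triglyceride, rose 1.69-fold and 1.58-fold, from 13.9 ± 1.57 to 23.6 ± 0.234 CPM and from 20.98 ± 0.494 to 33.4 ± 3.90 CPM (SD, n = 3). Per length in differentiated cells, Pnpla2 stood at 35.5 ± 2.78 RPKM and G0s2 at 7.04 ± 0.576 RPKM (SD, n = 3).

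Among regulators of fuel choice, Ucp2, a carrier of the inner mitochondrial membrane, stood at 247, 243 and 217 CPM and then at 464, 547 and 499.9 CPM. All differentiated libraries were above the others, with a 2.13-fold rise (log2 1.09 ± 0.059 SE; edgeR adjusted p = 1.52e-15). Angptl4, a secreted inhibitor of lipoprotein lipase, stood at 1.70, 2.55 and 1.62 CPM and then at 3.43, 3.27 and 3.13 CPM, a 1.65-fold rise (log2 0.72 ± 0.276 SE; edgeR adjusted p = 0.0196). This call was lost with DESeq2 (adjusted p = 0.0831) and without undifferentiated library 1 (0.0815) or 3 (0.0728). Pdk4, the kinase that switches off pyruvate dehydrogenase, had 0 reads in all 6 libraries, and Ppargc1a, a coactivator of oxidative genes, had 0 reads in undifferentiated and 4 in differentiated libraries. Both are known in other tissues for strong responses to fasting, and neither passed 3 reads in any library at this depth.

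Within 5 pairs of genes with like names, the share of the first gene per length was computed in each library, which does not depend on scaling between libraries. The genes of a pair can differ in place or role, as given above for Acaca and Acacb and for Cpt1a and Cpt1c. With 3 libraries against 3 an exact two-sided permutation test cannot give p under 0.1, and the Benjamini-Hochberg values over the 5 pairs cannot fall under 0.1 either. Plin2 made up 55.0% ± 1.83 of Plin2 and Plin3 in undifferentiated and 78.4% ± 1.82 in differentiated cells (SD, n = 3; exact p = 0.1, adjusted 0.125). Scd1 made up 12.4%, 12.8% and 12.0% of Scd1 and Scd2 in undifferentiated and 19.2%, 19.3% and 18.5% in differentiated libraries (exact p = 0.1, adjusted 0.125). Scd2 thus stayed the larger part in every library. Acaca went from 90.9% ± 3.03 to 79.2% ± 0.923 of Acaca and Acacb (SD, n = 3; exact p = 0.1, adjusted 0.125). Cpt1a went from 83.7% ± 2.89 to 76.4% ± 1.06 of Cpt1a and Cpt1c (SD, n = 3; exact p = 0.1, adjusted 0.125). In these 4 pairs the groups did not overlap. Separate groups were common among single genes. Of all tested genes, 41.0% had every differentiated library above every undifferentiated one and 38.9% had every one below. The like share over other pairs was not computed. Dgat1 made up 40.1% ± 2.38 and 41.8% ± 2.54 of Dgat1 and Dgat2 (SD, n = 3; exact p = 0.5, adjusted 0.5), with overlapping groups.

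**Figure D4:**
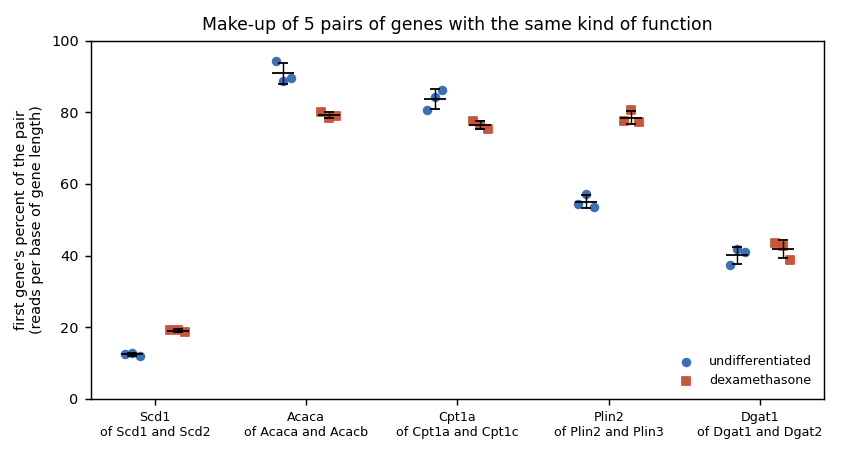
Percent of each pair's reads per base of gene length that fell on the first gene, in each library, with the mean and SD of 3 libraries (circles undifferentiated, squares dexamethasone). The share of Plin2 goes from 55.0% to 78.4%, and the shares of Dgat1 overlap between groups.

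Other genes of the same pathways, 146 on 6 lists by textbook role, were measured in the same fit. The lists were drawn up with earlier results of these data known, and 117 genes had enough reads. Of these 77 were called higher and 26 lower (40.3% and 38.6% of all tested genes), with a median log2 fold change of 0.65. The peroxisomal list had 15 higher and 1 lower of 18 (median 0.87) and the droplet and triglyceride list 21 higher and 2 lower of 25 (median 0.81). The uptake and activation list had 7 and 3 of 11 (median 0.76), the mitochondrial list 11 and 5 of 20 (0.47), the synthesis and supply list 11 and 6 of 20 (0.41), and the list of regulators and ketone bodies 12 and 9 of 23 (0.28). On the droplet list Gpat3, an acyltransferase of the first step of triglyceride synthesis, rose 23.9-fold, from 1.41, 1.27 and 1.95 CPM to 36.4, 37.3 and 36.2 CPM. Pnpla3, a relative of Pnpla2, rose 9.63-fold, Agpat5 fell 1.98-fold and Agpat1 fell 1.17-fold. On the peroxisomal list Phyh, which starts the breakdown of phytanic acid, rose 3.47-fold and Ehhadh, the bifunctional enzyme, 3.10-fold, and the import receptor gene Pex5 fell 1.16-fold. The falls of Agpat1 and Pex5 were not called with upper quartile scaling (edgeR adjusted p = 0.0517 and 0.167) or library totals (0.109 and 0.285).

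On the uptake list Slc27a1, a fatty acid transport protein, rose 7.47-fold, from 17.7, 13.3 and 14.3 CPM to 93.8, 125 and 119.6 CPM, and the lipoprotein lipase gene Lpl 2.42-fold. Fabp5, a fatty acid binding protein of neural and epithelial cells, fell 5.39-fold and Mfsd2a, a carrier of lysophospholipids, 2.07-fold. On the mitochondrial list the thioesterase gene Acot2 rose 7.21-fold and Acadsb, which acts on short branched chains, 3.55-fold, and Etfa, which takes electrons from the acyl-CoA dehydrogenases, fell 1.48-fold and Acad9 1.47-fold. On the synthesis list Acss2, which makes acetyl-CoA from acetate, rose 4.68-fold and Insig1, which holds back the sterol response, 3.40-fold. Mecr of mitochondrial fatty acid synthesis fell 2.56-fold and Hacd1, a dehydratase of elongation, 2.44-fold. Among regulators the oxysterol receptor gene Nr1h3 rose 4.09-fold. Oxct1, which starts the use of ketone bodies, fell 2.57-fold and Acat1 of the same route 2.34-fold.

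**Figure D5:**
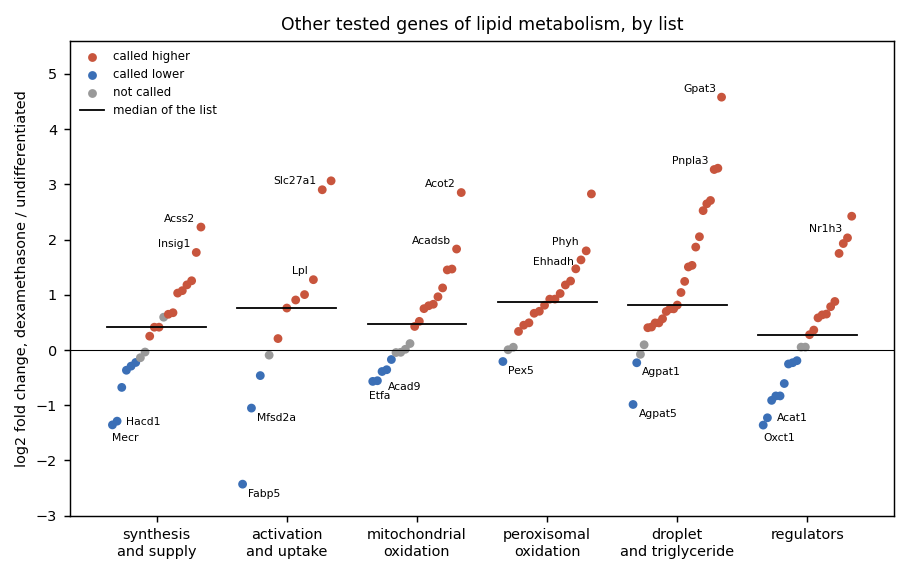
Fitted log2 fold change of the tested genes on the 6 lists, 1 gene left out, each point a gene, with the list's median as a line and the named genes labelled. Most points of the peroxisomal and droplet lists lie above 0, and those of the regulators lie on both sides.

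Markers of other cell types that carry these genes were read in the same libraries. Of 10 adipocyte markers 2 had enough reads, Lpl and Pparg, and both were called higher. The list's summed level was 91.7 to 98.9 CPM in undifferentiated and 177 to 179 CPM in differentiated libraries. Nearly all of it came from these 2 genes. Cidec, Retn and Cfd had 0 reads in all 6 libraries, and Adipoq had 1 read in all. With too few reads for a test, Plin4 had 0 reads in undifferentiated and 4, 10 and 10 reads in differentiated libraries. Summed over the undifferentiated and the differentiated group, Plin1 had 1 and 16 reads, Fabp4 0 and 6 reads and Lep 0 and 1 read. Of 8 hepatocyte markers 0 had enough reads for a test, at summed levels of 0.325 to 0.707 CPM and 1.04 to 1.88 CPM, with Alb at 0 reads. Of 9 macrophage markers 0 had enough reads, at 0.325 to 0.989 CPM and 0.436 to 1.04 CPM, with Ptprc at 0 reads. Of 8 fibroblast markers 4 had enough reads and 3 of them rose (Fn1, Dcn and Thy1), with summed levels of 347 to 357 CPM and 1345 to 1434 CPM. Nearly all of that sum came from Fn1, at means of 342 CPM in undifferentiated and 1376 CPM in differentiated cells. Col1a1, the other tested marker, was not called (log2 -0.74, edgeR adjusted p = 0.0772). Col1a2, Pdgfra and Lum had too few reads, and Col3a1 had 0 reads. Of 8 astrocyte and oligodendrocyte markers 2 had enough reads, 1 called higher and 1 lower, at 4.24 to 5.19 CPM and 3.72 to 5.34 CPM. The part of these cell types in the results was not tested. All 13 catecholaminergic and neuronal markers had enough reads, and 7 were called higher and 5 lower. Among the catecholamine genes of that list Dbh fell 13.2-fold and Ddc 7.28-fold, while Th rose 2.09-fold and Gch1 2.80-fold. All 6 glucocorticoid response genes were called higher and all 6 cell division genes lower.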

How the data were processed

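Each of the 6 libraries had a deposited file of raw whole-number counts per gene, not normalized or pooled. The authors assigned reads to genes of Ensembl release 96 with featureCounts 1.6.4, per the file headers. Strand setting 1 was used, and multiply aligned or ambiguously overlapping reads were not counted, so near-identical genes are uncertain. The deposited gene length in bases was used for RPKM. CPM and RPKM were computed here. Per the submitters' processing notes HISAT2 2.2.0, Trim Galore 0.6.4, DESeq2, Subread 1.6.4 and FastQC 0.11.9 were among the tools and GRCm38.p6 was the build; the tools' roles are not given in the sources used here. All 55536 gene identifiers matched GENCODE M21 with the same start and end.

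Genes were kept by filterByExpr (minimum count 10, minimum total 15), which left 12664 genes with 99.8% of reads, and tested with TMM factors in edgeR 4.0.16 (glmQLFit and glmQLFTest, R 4.3.3) with the group as the only term. The common biological coefficient of variation was 4.41%. SE is the size of the log2 fold change over the square root of F, and bounds against groups with 0 reads use 3 reads over the group, which covers counting error only. Replicate libraries varied beyond counting noise (chi-square per gene 1.69 to 3.34), so none was treated as a copy. The settings tried instead were upper quartile and RLE factors, library totals, no filter, 1 CPM in 3 libraries, DESeq2 1.42.0, limma 3.58.1 (voom), a replicate block, an adjusted p under 0.01, mitochondrial and cell division genes left out, and each library left out. Equal replicate numbers did not pair libraries. Counts were also simulated with 50 genes changed at each of 1.25, 1.5, 2 and 4-fold among 12664, and the same test was run. It recovered 60%, 74%, 96% and 98% of these genes, and 4.65% of its calls were unchanged genes. Far fewer genes changed there than were called in these data, so scaling where most genes move was not checked.

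The members, branches and lists were chosen with earlier results of these data known. All members are accounted for, and per-library values or full statistics were given first to the largest called rise and fall of each branch that averaged 5 CPM or more in a group, and to the highest level per length, with others added after their values were seen. On the other lists up to 2 called genes per direction with the largest fitted change and at least 5 CPM were named; 1 of these is not reported here. Sequences were read from RefSeq on GRCm38.p6, and stretches of 75 bases were compared between GENCODE M21 transcripts.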

Additional observations from a re-analysis of the deposited data

How the results depend on the processing

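Over the 16 alternatives, 30 of the 31 members called higher and 1 of the 2 called lower (Hadhb) kept their call in each; the exceptions were Angptl4 and Acadm. The count called higher stayed between 30 and 32. The count called lower, 2, was 1 with upper quartile factors, library totals, no filter, DESeq2 and an adjusted p under 0.01, and 1 to 2 with a library left out. With upper quartile factors and library totals the branch medians were 0.39 and 0.42 for synthesis, 0.56 and 0.58 for elongation, 0.66 and 0.68 for activation, 1.03 and 1.05 for the carnitine shuttle, 0.063 and 0.086 for mitochondrial oxidation, 1.18 and 1.20 for droplets and 1.01 and 1.03 for fuel regulators; both shift all genes. With no filter the carnitine shuttle was at 0.95 and mitochondrial oxidation at -0.018, and the peroxisomal median was 4.92 with DESeq2 and 4.21 with limma voom, since it rests on the fitted value of a gene with 0 reads in a group. With a library left out the medians ranged from 0.91 to 1.04 for the carnitine shuttle, -0.050 to -0.0070 for mitochondrial oxidation and 0.82 to 1.05 for fuel regulators. With library totals 3 genes of the other mitochondrial list, 0 of the peroxisomal and 1 of the droplet list were called lower. Genes that were not called changed sign: with upper quartile factors and library totals Acsl5 was at 0.077 and 0.10, Acadvl at 0.053 and 0.077, Hadh at 0.072 and 0.096 and Hadha at 0.042 and 0.067. With a library left out Hadh ranged from -0.046 to 0.00066, Elovl1 from -0.039 to 0.049 and Acsl5 from -0.068 to 0.028. The cause was not tested. Same-numbered libraries had correlations of -0.095, 0.036 and -0.071, so the numbers were not used to pair them, and a library's best match was not always its own number; a fit with a replicate block called 31 members higher and 2 lower, and over all genes 5017 and 4803. This depth leaves genes under 0.327 to 0.487 CPM in a library, such as Pdk4, Ppargc1a and Mgll, out of reach.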
